A study of Rattus norvegicus with 6 samples.

Results

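The genes described here were the collagen chain genes of the rat thyroid, taken as every gene symbol made of Col, a number, the letter a and a number, with 10 or more reads summed over the samples. Of the 15388 genes in each table, 40 had such a symbol and 36 reached 10 reads. These 36 chains belonged to 23 collagen types and were divided into 10 fibrillar, 6 basement membrane and 20 other chains. The 4 chains under 10 reads were Col1a2, Col10a1, Col19a1 and Col26a1. Col4a3 and Col6a3 were not among the 40 symbols, so the accounts of types IV and VI lack these chains.

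Thyroid tissue came from adult female Sprague-Dawley rats that were either non-pregnant (NP) or in late pregnancy (LP) on day 18, counted from the vaginal plug as day 1. RNA sequencing of polyadenylated RNA gave 3 libraries for each group, named NP replicates 1 to 3 and LP replicates 1 to 3, with 2752144 to 3449857 counted reads each. CPM values here are read counts divided by the TMM-adjusted library total. On the library total without that adjustment, 3 reads lay between 0.870 and 1.09 CPM. Transcript lengths were not used, so levels were compared between samples for 1 gene and not between genes.

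The following properties of the libraries bear on every collagen value. First, a chi-square test over genes found no difference beyond sampling noise between replicates 2 and 3 of a group, with a chi-square per degree of freedom of 1.02 in NP (p = 0.111) and 0.995 in LP (p = 0.667), while for replicate 1 against either it was 3.70 to 4.11. Replicates 2 and 3 were therefore counted as 1 sample, and each mean ± SD below has n = 2. Second, the summed level of 10 smooth muscle and pericyte markers was 519 CPM in NP replicate 1 and 1111 CPM in LP replicate 1, against 1978 to 2688 CPM in the other 4 libraries, and in LP these sums include 714 to 796 CPM of Des, which skeletal muscle also expresses. Finally, the summed level of 17 skeletal muscle markers was 34.7 to 88.4 CPM in NP and 6138 to 6470 CPM in LP, with 13 of 15 tested markers higher in LP. The follicular cell markers that define the tissue summed to 231435 to 258066 CPM in every library. In such bulk samples, fewer cells of a type and less RNA per cell cannot be told apart.

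Collagens are the main structural proteins of the extracellular matrix. Each molecule is a triple helix of chains, and the chains of 1 type are usually encoded by separate genes. Fibrillar collagens assemble into the cross-striated fibrils of the stroma and capsule, type IV collagen forms the sheet-like network of the basement membrane around thyroid follicles and blood vessels, and the remaining types link fibrils, form beaded filaments, anchor epithelia or span the cell membrane. In the thyroid, fibroblasts, mural cells of vessels, endothelial cells and the follicular epithelium all lay down matrix.

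The upstream sequences of a few chains are shown because the results below turn on these genes. Col4a1 and Col4a2, the chains of the common type IV molecule, start back to back with 76 bases between their starts, and Col5a3 and Col13a1 had the smallest adjusted p among the chains higher and lower in LP. The sequences were taken from RefSeq on the rat assembly GRCr8, which is not the assembly used for the counts. The first is the interval between both starts at chr16:84885521-84885596 on the plus strand, the second is the 250 bases before the Col5a3 start at chr8:27625949-27626198 on the minus strand, and the third is the 250 bases before the Col13a1 start at chr20:30466801-30467050 on the minus strand. Capitals mark matches on either strand to GGGCGG, to the CCAAT motif or to the TATAAA motif, so that a GGGCGG on the other strand reads as CCGCCC.
Col4a1-Col4a2: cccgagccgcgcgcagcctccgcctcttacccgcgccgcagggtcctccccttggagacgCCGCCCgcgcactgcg
Col5a3: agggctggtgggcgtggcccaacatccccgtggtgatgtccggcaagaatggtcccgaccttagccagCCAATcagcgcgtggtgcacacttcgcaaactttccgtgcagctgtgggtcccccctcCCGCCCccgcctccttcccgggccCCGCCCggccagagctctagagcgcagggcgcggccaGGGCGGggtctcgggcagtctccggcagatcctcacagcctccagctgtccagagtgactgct
Col13a1: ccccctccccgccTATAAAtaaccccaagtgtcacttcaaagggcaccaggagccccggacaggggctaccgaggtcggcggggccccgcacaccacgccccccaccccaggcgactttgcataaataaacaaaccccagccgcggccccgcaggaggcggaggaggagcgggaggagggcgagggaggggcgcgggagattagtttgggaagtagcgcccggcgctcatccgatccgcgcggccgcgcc
The shared Col4a1 and Col4a2 interval held 1 GGGCGG match and no other of these letters, and 18.1% of the 33469 RefSeq windows held GGGCGG in their last 76 bases. Upstream of Col5a3 there were 3 GGGCGG matches and 1 CCAAT match, and upstream of Col13a1 1 TATAAA match. Over 250 bases, GGGCGG was found in 30.5%, CCAAT in 34.0% and TATAAA in 8.06% of all windows. The motifs did not overlap one another in these sequences, and a match describes letters, not a bound site.

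To ask how collagen expression in the maternal thyroid differed in late pregnancy, the quasi-likelihood test of edgeR was run on both groups and its p-values were adjusted over 11738 genes by Benjamini and Hochberg's method. Of the 36 chains, 32 passed the filter on low counts, and 9 of them had an adjusted p below 0.05, a share of 28.1% against a background of 27.0% of all genes tested. 7 chains, that is 21.9% against a background of 15.3%, were higher in LP: Col5a3, Col11a2, Col24a1, Col27a1, Col16a1, Col22a1 and Col6a6. Col13a1 and Col4a4, that is 6.25% of the chains against 11.7% of all genes, were lower. Also, 3 of the 32 (9.38%), Col22a1, Col24a1 and Col6a6, passed a fold change of 2, which 5.44% of all genes did. The share of collagens called in either direction thus lay close to that of the transcriptome. The shares higher, lower and past a fold of 2 lay further from it but rest on few chains. The median log2 fold change was 0.08 over the 32 chains and -0.01 over all genes tested. Col20a1, Col22a1, Col24a1, Col6a6 and Col8a2 reached the filter level in every LP library but not in every NP library. Col11a1 and Col28a1 reached it in every NP library but not in every LP library. The filter asked for this level in any 3 libraries, so counts over tested chains are not counts over all members. All chains past a fold of 2 were among those that reached the level in every LP library but not in every NP library.

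**Figure D1:**
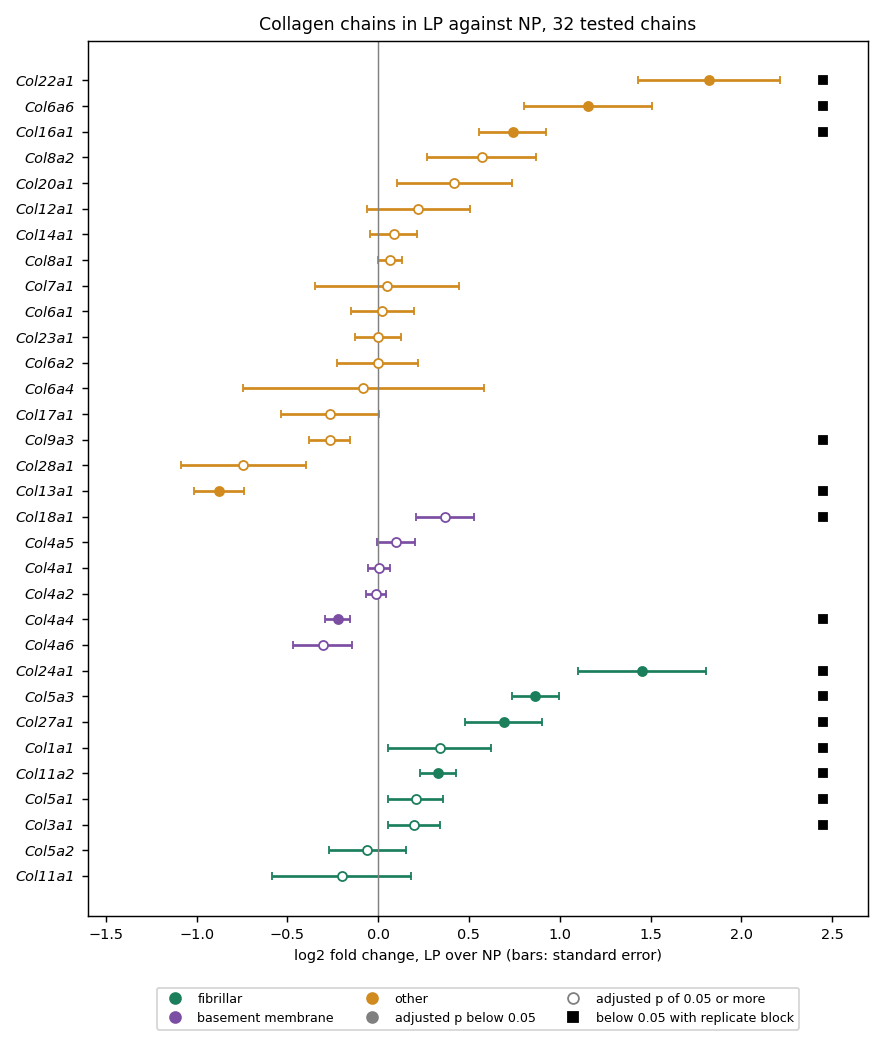
Log2 fold change of LP over NP (horizontal axis) for the 32 tested collagen chains, grouped as fibrillar, basement membrane and other chains. Bars are standard errors, filled points have an adjusted p below 0.05 in edgeR, and black squares at the right mark chains below 0.05 when the fit held the replicate block. Filled points lie to the right of 0 for 7 chains and to the left for Col13a1 and Col4a4, and the type IV pair Col4a1 and Col4a2 sits at 0.

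Same-numbered libraries deviated together across the groups, mainly as replicate 1 against replicates 2 and 3, so the test was also run with the replicate number held constant. With the replicate number added to the fit as a block, 11 chains were higher and 3 lower in LP, against 17.5% and 14.7% of all genes. The block added Col1a1, Col3a1, Col5a1 and Col18a1 to the higher chains and Col9a3 to the lower ones. This fit entered replicates 2 and 3 separately although they were counted as 1 sample, so its p-values rest partly on technical spread. With replicates 2 and 3 summed and the block kept, Col5a1 and Col9a3 no longer passed (edgeR adjusted p = 0.0509 and 0.0542), and Col1a1, Col3a1 and Col18a1 did. This summed fit with the block has few libraries for its coefficients, so little is left to measure spread. Its common biological coefficient of variation was 0.0163, against 0.0781 for the same sums without the block. Its p-values therefore cannot decide how far these chains vary between animals. With replicates 2 and 3 summed into 1 library, 5 chains were higher and 1 was lower (12.3% and 8.36% of all genes). DESeq2 called 2 chains higher, Col5a3 and Col22a1, and Col13a1 lower (10.4% and 5.99% of all genes), and without replicate 1 of either group 9 were higher and 2 lower, 11 chains in all (34.4% of the chains against 23.8% of all genes). In that last fit each group holds 1 counted sample, so its spread is technical and its p-values do not measure variation between animals.

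Among the fibrillar collagens, several minor chains passed the test between the groups without the block, and the major chains of types I and III did not pass it. Of 9 tested fibrillar chains 4 were higher in LP, Col5a3, Col11a2, Col24a1 and Col27a1, and none was lower, where 15.3% of all genes were higher and 11.7% lower. DESeq2 called 1 of the 9 chains higher, Col5a3 (11.1%, against 10.4% of all genes). The median log2 fold change over the 9 chains was 0.33, and without NP replicate 1 it was 0.05.

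Col5a3 (ENSRNOT00000027897), a chain of type V collagen, which nucleates fibrils and sets their diameter, was at 20.0, 17.0 and 18.4 CPM in the NP libraries and at 33.5, 30.0 and 37.4 CPM in the LP libraries. All LP libraries lay above all NP libraries, and the means were 18.9 ± 1.6 and 33.6 ± 0.11 CPM (SD, n = 2 each). The log2 fold change was 0.87 (SE 0.13), with an adjusted p of 6.9e-05 in edgeR, and the range over all alternatives was 1.36e-09 to 0.00107. It was 1 of 2 chains higher in LP that DESeq2 also called.

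Col24a1 (ENSRNOT00000019210), a fibrillar chain of restricted expression known from bone and cornea, had 2, 18 and 19 reads in NP and 32, 40 and 47 reads in LP. These reads corresponded to 0.715, 5.90 and 6.24 CPM in NP and to 10.2, 11.9 and 13.9 CPM in LP, so NP replicate 1 stood far below the other NP libraries while the groups did not overlap. The log2 fold change was 1.45 (SE 0.35, edgeR adjusted p = 0.00498), it was 1.08 without replicate 1 of either group, and adjusted p-values over the alternatives ran from 7.83e-08 to 0.157, the highest with DESeq2. Col27a1 (ENSRNOT00000010333), a fibrillar chain of cartilage and other developing tissues, was at 6.43, 10.2 and 9.52 CPM in NP and at 11.8, 13.9 and 16.6 CPM in LP. The log2 fold change came to 0.69 (SE 0.21, edgeR adjusted p = 0.0228). The call was lost with replicates 2 and 3 summed (adjusted p = 0.0702) and without LP replicate 3 (0.123), LP replicate 2 (0.0554) or NP replicate 1 (0.0928), and with DESeq2 (0.119), within a range of 0.00274 to 0.123 over the alternatives. Col11a2 (ENSRNOT00000045533), a chain of type XI collagen, which forms the core of cartilage fibrils, was at 40.7, 40.3 and 43.7 CPM in NP and at 59.1, 46.9 and 51.4 CPM in LP. This was a log2 fold change of 0.33 (SE 0.10, edgeR adjusted p = 0.0196), and the adjusted p reached 0.117 without LP replicate 1, the library with the highest value, 0.053 without NP replicate 1, 0.0723 without NP replicate 2, 0.134 with DESeq2 and 0.182 without replicate 1 of either group, at the upper end of a range that began at 0.00419.

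Type XI and several minor fibrillar chains are best known from cartilage, whose markers were therefore read beside them. Of 9 cartilage markers in the tables, 4 were tested, with Sox9 and Prg4 higher and Cytl1 lower in LP, and the summed level was 233 to 247 CPM in NP and 265 to 306 CPM in LP. The cartilage proteins Matn1, Lect1 and Epyc were at or below 0.958 CPM in every library. The 7 tendon markers summed to 90.0 to 113 CPM in NP and 146 to 152 CPM in LP, with 2 of 6 tested markers higher and 1 lower. Beside both marker lists, 15.3% of all genes tested were higher and 11.7% lower. The part of these cells, and of the skeletal muscle signal, in the collagen differences was not tested.

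Col1a1, the principal chain of type I collagen, was at 304, 892 and 814 CPM in NP and at 495, 1050 and 996 CPM in LP. Replicate 1 was the lowest library in both groups, and LP replicate 1 lay below NP replicates 2 and 3, so the groups overlapped. The means were 578 ± 388 and 759 ± 373 CPM (SD, n = 2 each), with a log2 fold change of 0.34 (SE 0.28, edgeR adjusted p = 0.43). With the replicate block the log2 fold change was 0.35 with an adjusted p of 2.42e-38, and without NP replicate 1 it was -0.01 with an adjusted p of 0.977, the lowest and the highest value over the alternatives. The block fit entered replicates 2 and 3 separately, and with these summed and the block kept the edgeR adjusted p of Col1a1 was 1.57e-08. That value comes from a fit with few libraries for its coefficients and does not measure variation between animals. Between the 2 replicates 1, Col1a1 was 1.63-fold higher in LP, and between the replicates 2 and 3 it was 1.20-fold higher. Col3a1, the chain of type III collagen, which forms the fine reticular fibrils of soft tissue, was at 529, 815 and 834 CPM in NP and at 625, 943 and 930 CPM in LP. Its log2 fold change was 0.20 (SE 0.14, edgeR adjusted p = 0.357), and with the replicate block the adjusted p was 3.28e-13, within a range of 3.28e-13 to 0.955. With replicates 2 and 3 summed and the block kept, the edgeR adjusted p of Col3a1 was 4.37e-07, under the same limit as for Col1a1. The LP over NP ratio was 1.18 in replicate 1 and 1.14 in replicates 2 and 3. Col1a2, the second chain of type I collagen, had only 0, 1 and 3 reads in NP and 0, 1 and 3 reads in LP, while Col1a1 had 850 to 3540 reads. The 2 chains are known to be made together, so the near absence of Col1a2 reads limits what these tables say of type I collagen, and its origin was not tested.

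Of the remaining type V chains, Col5a1 was at 48.2, 75.7 and 66.7 CPM in NP and at 54.0, 87.2 and 79.0 CPM in LP, with a log2 fold change of 0.21 (SE 0.15, edgeR adjusted p = 0.352). The block lowered the adjusted p to 0.0363, but it was 0.0509 with the block on summed replicates 2 and 3 and 0.0622 with the block and no filter on low counts, within a range of 0.0287 to 0.841 over the alternatives. Col5a2, which lies next to Col3a1 in the rat genome, was at 35.4, 69.1 and 61.1 CPM in NP and at 32.2, 66.7 and 59.96 CPM in LP. The fitted log2 fold change of Col5a2 was -0.06 (SE 0.21, edgeR adjusted p = 0.876). The 3 chains of type V therefore gave separate values, with the LP libraries apart from the NP libraries for Col5a3 alone among these 3. Col11a1 had 2.55 to 8.87 CPM and overlapped between the groups, and Col2a1, the type II chain of cartilage, had 0 to 5 reads in each library and was not tested.

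**Figure D2:**
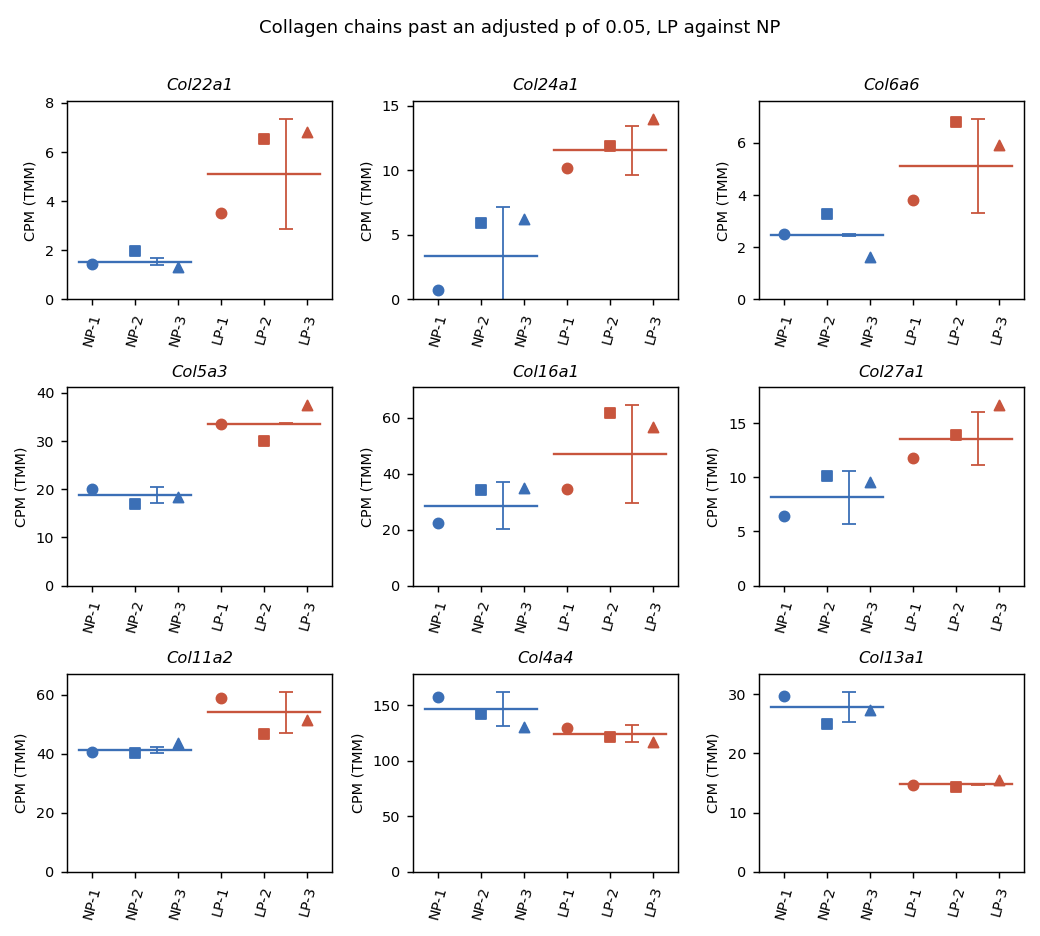
CPM (vertical axes, from 0) in the 6 thyroid libraries for the 9 collagen chains with an adjusted p below 0.05. Points are libraries, horizontal lines are the mean of replicate 1 and the averaged replicates 2 and 3 of a group, and bars are the SD of these 2 values. All LP points lie above all NP points for 6 chains, Col16a1 overlaps, and Col13a1 and Col4a4 lie lower in LP.

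The basement membrane chains showed smaller differences. Of 6 tested chains, 1 was lower and none higher in LP, counts that lie near the 11.7% and 15.3% of all genes. The median log2 fold change was -0.00 for the 6 chains and -0.01 for the 5 type IV chains. Col4a1 was at 357, 411 and 413 CPM in NP and at 376, 406 and 401 CPM in LP, with means of 384 ± 39 and 390 ± 19 CPM (SD, n = 2 each). Its fitted log2 fold change was 0.00 (SE 0.06, edgeR adjusted p = 0.978). Col4a2, its head-to-head neighbour whose shared start region is printed above, was at 289, 311 and 278 CPM in NP and at 284, 296 and 292 CPM in LP, with a log2 fold change of -0.01 (SE 0.06, edgeR adjusted p = 0.919). For both genes the standard error was small, and the difference between the groups was smaller than 1 standard error.

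Col4a4 (ENSRNOT00000076472), a chain of the type IV network of mature basement membranes such as that of the kidney glomerulus, was at 158, 142 and 130.4 CPM in NP and at 129.9, 122 and 117 CPM in LP. All LP libraries were lower, though NP replicate 3 and LP replicate 1 nearly met, and the log2 fold change was -0.22 (SE 0.07, edgeR adjusted p = 0.024). The call was lost with replicates 2 and 3 summed (adjusted p = 0.081), with DESeq2 (0.103), and without NP replicate 1 (0.111), LP replicate 2 (0.0802) or LP replicate 3 (0.12), within a range of 0.00101 to 0.12. Col4a5 was at 44.3 to 54.7 CPM in NP and at 48.5 to 61.7 CPM in LP with a log2 fold change of 0.10 (SE 0.10, edgeR adjusted p = 0.547). Col4a6 was at 17.2, 15.7 and 16.4 CPM in NP and at 11.8, 13.1 and 14.8 CPM in LP, and although the groups did not overlap, its log2 fold change of -0.31 (SE 0.16) had an edgeR adjusted p of 0.189. Col18a1, the proteoglycan-type collagen that carries endostatin, was at 67.2, 120 and 111 CPM in NP and at 96.4, 148 and 142 CPM in LP. It had a log2 fold change of 0.37 (SE 0.16, edgeR adjusted p = 0.104), with an adjusted p of 5.51e-08 with the replicate block, within a range of 5.51e-08 to 0.545. With replicates 2 and 3 summed and the block kept, the edgeR adjusted p of Col18a1 was 1.66e-05, from a fit with few libraries for its coefficients.

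Among the 17 tested chains of the other types, 3 were higher (17.6%) and 1 was lower (5.88%) in LP, against 15.3% and 11.7% of all genes, and the median log2 fold change was 0.05. Col13a1 (ENSRNOT00000046537), a transmembrane collagen known from cell adhesions and the neuromuscular junction, was at 29.7, 24.9 and 27.2 CPM in NP and at 14.7, 14.2 and 15.4 CPM in LP. The groups were far apart and replicate 1 was close to the other libraries in both, with means of 27.9 ± 2.5 and 14.8 ± 0.11 CPM (SD, n = 2 each). Its log2 fold change was -0.88 (SE 0.14, edgeR adjusted p = 9.49e-05), and every alternative that gave a value called it, with adjusted p-values of 3.36e-08 to 0.00116.

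Col22a1 (ENSRNOT00000034672), a fibril-associated collagen known from the junction of muscle and tendon, had 4, 6 and 4 reads in NP and 11, 22 and 23 reads in LP. These counts stood for 1.43, 1.97 and 1.31 CPM in NP and 3.51, 6.52 and 6.83 CPM in LP, and no NP library reached the level of the count filter. The log2 fold change was 1.82 (SE 0.39, edgeR adjusted p = 0.00181), and the range of adjusted p over the alternatives was 4.43e-05 to 0.0153. Col16a1 (ENSRNOT00000067663), a fibril-associated collagen of many stromal tissues, was at 22.5, 34.1 and 34.8 CPM in NP and at 34.5, 61.7 and 56.7 CPM in LP. LP replicate 1 lay level with NP replicates 2 and 3, whereas in each replicate number LP was higher than NP, 1.53-fold in replicate 1 and 1.72-fold in replicates 2 and 3. The log2 fold change was 0.74 (SE 0.18, edgeR adjusted p = 0.00572), with a range of 5.69e-11 to 0.0994 over the alternatives, the highest with DESeq2.

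Type VI collagen forms the beaded microfilaments around cells, and of its 4 tested chains Col6a6 passed the test. Differences between chains were not tested. Col6a6 (ENSRNOT00000056414), an alternative chain, had 7, 10 and 5 reads in NP and 12, 23 and 20 reads in LP, that is 2.50, 3.28 and 1.64 CPM against 3.83, 6.82 and 5.94 CPM. Its log2 fold change was 1.16 (SE 0.35, edgeR adjusted p = 0.0212). The call was lost with replicates 2 and 3 summed (adjusted p = 0.0576), with DESeq2 (0.134), and without NP replicate 3 (0.106), LP replicate 2 (0.10) or LP replicate 3 (0.0748), within a range of 0.00532 to 0.134. Col6a1 was at 204, 341 and 335 CPM in NP and at 206, 349 and 341 CPM in LP, and Col6a2, its neighbour in the genome, at 216.5, 433 and 441 CPM in NP and at 220, 446 and 422 CPM in LP. Replicate 1 was low in both groups by about the same amount, and the log2 fold changes were 0.02 (SE 0.17, edgeR adjusted p = 0.943) for Col6a1 and -0.00 (SE 0.22, edgeR adjusted p = 0.994) for Col6a2. Col6a4 had 0, 40 and 23 reads in NP and 1, 36 and 29 reads in LP, so that replicate 1 held almost none of its reads in either group, with a log2 fold change of -0.08 (SE 0.66, edgeR adjusted p = 0.948). Col6a5 had 3 to 12 reads in each library and was not tested.

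Col9a3, a chain of the fibril-associated type IX collagen, was at 53.6, 38.0 and 44.0 CPM in NP and at 37.7, 37.96 and 36.5 CPM in LP. Its log2 fold change was -0.27 (SE 0.11, edgeR adjusted p = 0.0986), and with the replicate block the adjusted p was 0.0373. It was 0.0542 with the block on summed replicates 2 and 3 and 0.0631 with the block and no filter, within a range of 0.019 to 0.473, the highest without replicate 1 of either group. Col28a1, a von Willebrand domain collagen associated with peripheral nerve, had 9, 17 and 12 reads in NP and 9, 8 and 8 reads in LP, with an edgeR adjusted p of 0.127. The chains Col7a1, Col8a1, Col8a2, Col12a1, Col14a1, Col17a1, Col20a1 and Col23a1 had log2 fold changes between -0.26 and 0.57 and none passed the test. Among them, Col8a1, a network-forming collagen of vessel walls, was at 99.3 to 115 CPM in NP and 107 to 112 CPM in LP, and the transmembrane chain Col23a1 at 24.3 to 26.9 CPM and 22.2 to 28.7 CPM. Col9a2 and Col25a1 had 4 to 9 reads in each library and were not tested.

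Groups that did not overlap were found for 6 chains higher in LP, which 21.1% of all genes tested were, and for 5 chains lower in LP, which 19.0% of all genes were. The higher chains were the called ones other than Col16a1, and the lower ones were Col13a1, Col4a4, Col4a6, Col9a3 and Col28a1.

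The larger contrast in many collagens was between replicate 1 and replicates 2 and 3 within each group. The mean of replicates 2 and 3 was more than 1.5-fold above replicate 1 in both groups for 10 of 32 tested chains, against 1.77% of all genes tested. None of the 32 was below replicate 1 by the same factor in both groups, against 0.170% of all genes. The 10 chains were Col1a1, Col5a2, Col11a1, Col18a1, Col6a1, Col6a2, Col6a4, Col7a1, Col12a1 and Col16a1. Col7a1, the chain of the fibrils that anchor epithelia to the stroma, was at 8.22, 32.8 and 26.3 CPM in NP and at 6.70, 30.6 and 32.4 CPM in LP, a difference of 3.59-fold and 4.69-fold between replicates within groups, whereas its log2 fold change of LP over NP was 0.05. Col1a1 differed 2.81-fold and 2.06-fold, Col6a2 2.02-fold and 1.97-fold, and Col6a1 1.66-fold and 1.68-fold. For the type IV pair the same ratios were 1.16 and 1.07 for Col4a1 and 1.02 and 1.04 for Col4a2. The called chains Col5a3 (0.885 and 1.00) and Col13a1 (0.879 and 1.01) also stayed close to 1.

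Some markers of smooth muscle and pericytes, the contractile cells of vessel and airway walls, moved with this contrast. Of 10 such markers, 5 were more than 1.5-fold higher in replicates 2 and 3 in both groups, and the rest were not. The share over all genes tested was 1.77%. Cnn1, a calponin of smooth muscle, was at 3.22, 87.8 and 84.7 CPM in NP and at 2.55, 92.2 and 84.0 CPM in LP. Myh11, the smooth muscle myosin heavy chain, was at 95.0 CPM in NP replicate 1 and 70.2 CPM in LP replicate 1, and at 591 to 626 CPM in the other libraries. The 11 fibroblast markers in the tables summed to 2472 to 2498 CPM in NP and to 1821 to 1882 CPM in LP with little difference between replicates. In LP 3 of them, Gsn, Cd34 and Dcn, were lower and none was higher, against 11.7% and 15.3% of all genes. The median log2 fold change of the 11 markers was 0.01, and Gsn alone was at 1524 to 1623 CPM in NP and 996 to 1032 CPM in LP. Their part in the collagen levels was not tested.

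**Figure D3:**
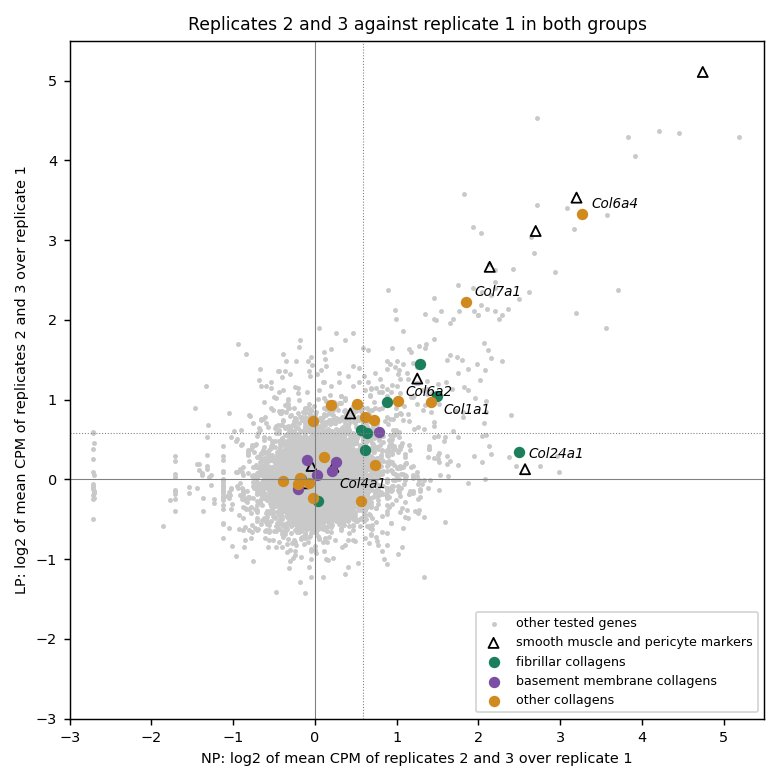
Log2 ratio of the mean CPM of replicates 2 and 3 to replicate 1, in NP (horizontal axis) and in LP (vertical axis), for the genes tested, with library values under 3 reads set to 3 reads. Dotted lines mark a ratio of 1.5. The 10 collagen chains, among them Col1a1, Col6a2, Col6a4 and Col7a1, lie above 1.5 in both groups together with 5 smooth muscle and pericyte markers (open triangles), while Col4a1 lies near the origin.

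The share of all counted reads that fell on the 36 collagens was 0.270%, 0.424% and 0.411% in NP and 0.292%, 0.439% and 0.425% in LP. Replicate 1 was lowest in both groups, and the groups overlapped, although LP was above NP within each replicate number. The means differed by 0.0171 percentage points over the 3 libraries of each group (exact permutation test, two-sided, p = 0.5, where the smallest p that 3 against 3 libraries can give is 0.1). Fibrillar chains took 0.1004 to 0.199% of reads in NP and 0.129 to 0.221% in LP (exact permutation p = 0.5), basement membrane chains 0.0948 to 0.108% and 0.0920 to 0.102% (exact permutation p = 0.4), and the other chains 0.0750 to 0.116% and 0.0711 to 0.116% (exact permutation p = 0.5). Within each replicate number the fibrillar share of the library total was higher in LP and the basement membrane and other shares were lower. With the skeletal muscle markers left out of the total, the share of the other chains in replicate 2 was 0.1160% in NP and 0.1164% in LP. The fibrillar and basement membrane shares kept their directions on that total. These permutations were not paired, and they entered replicates 2 and 3 as separate libraries. With replicates 2 and 3 counted as 1 sample, the exact permutation p was 0.667 for all collagens and for each class. The smallest p that 2 against 2 samples can give is 0.333, so the permutation test cannot decide whether these shares differed.

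Ratios of 2 chains within a library do not depend on the library total. The read ratio of Col5a2 to Col5a1 was 0.733, 0.913 and 0.916 in NP and 0.598, 0.765 and 0.759 in LP, lower in LP within each replicate number, but the exact permutation test gave p = 0.3. The ratio of Col3a1 to Col1a1 was 1.74, 0.913 and 1.03 in NP and 1.26, 0.898 and 0.933 in LP (exact permutation p = 0.6). The Col4a2 to Col4a1 ratio stayed between 0.674 and 0.811 (exact permutation p = 0.9), and the Col6a2 to Col6a1 ratio between 1.06 and 1.32 (exact permutation p = 0.8). All 4 exact permutation p-values were 0.9 after Benjamini-Hochberg adjustment over the 4 ratios. They too entered replicates 2 and 3 as separate libraries. With replicates 2 and 3 summed, no ratio gave an exact permutation p below 0.667, where the smallest possible p is 0.333. The permutation test therefore cannot decide whether these ratios differed between the groups.

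**Figure D4:**
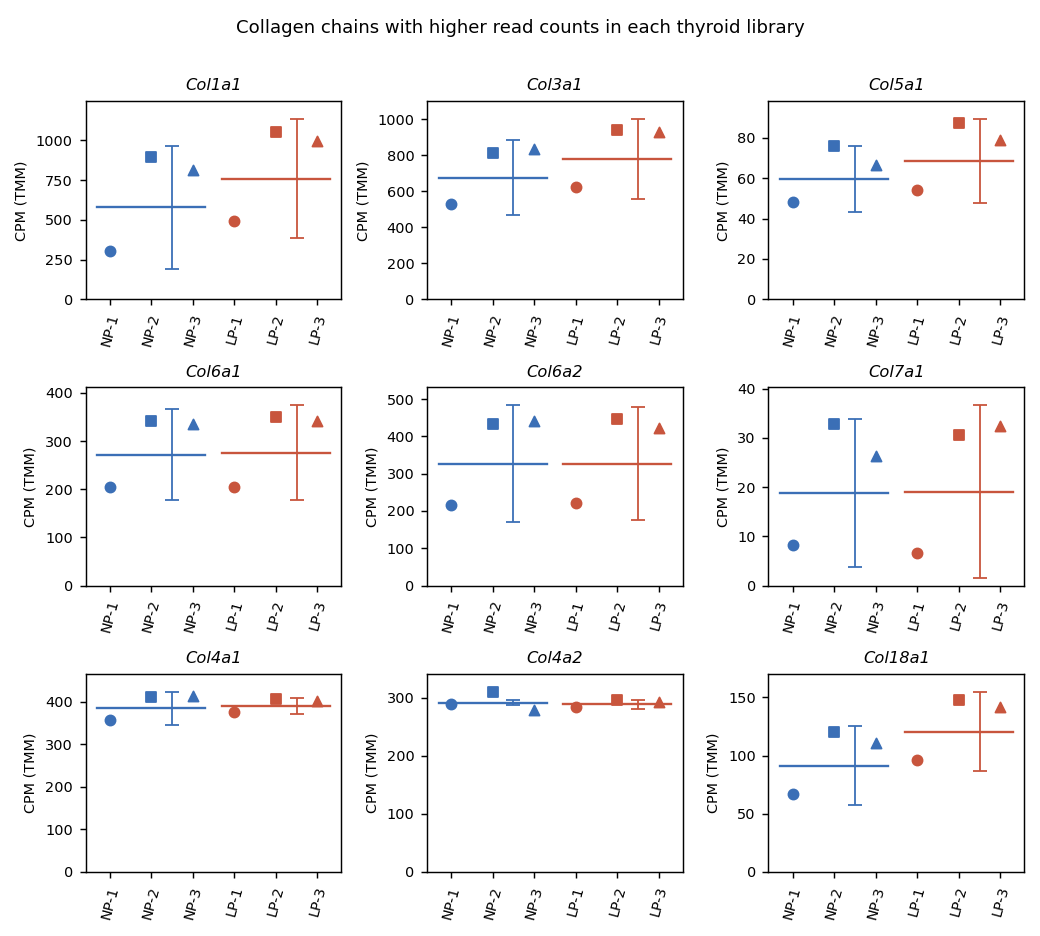
CPM (vertical axes, from 0) of 9 collagen chains picked by name, in the 6 thyroid libraries. Points are libraries, and lines and bars are the mean and SD of replicate 1 and the averaged replicates 2 and 3. The chains were not ranked by read count, as Col7a1 (436 reads in all) is shown and Col4a4 (2484) and Col8a1 (2007) are not. The number with a low replicate 1 is therefore not a share of all chains. For Col1a1, Col3a1, Col5a1, Col6a1, Col6a2, Col7a1 and Col18a1 replicate 1 is the lowest library of each group, and Col4a1 and Col4a2 are at nearly one level in all libraries.

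Genes that make, bind, sense or cut collagen were then compared in the same test. Of 27 tested genes for collagen assembly and secretion 7 were lower and 1 was higher in LP, with a median log2 fold change of -0.14, where 11.7% of all genes were lower and 15.3% higher. P4ha1, a catalytic subunit of the prolyl hydroxylase that stabilizes the collagen helix, was at 38.9, 41.9 and 42.4 CPM in NP and at 26.8, 27.3 and 29.1 CPM in LP (log2 fold change -0.57, edgeR adjusted p = 0.000398). The proline isomerase Ppib fell by 0.47 and P3h4, a partner of the collagen hydroxylases, fell by 0.40 on the log2 scale (edgeR adjusted p = 1.78e-06 and 0.0233), though P3h4 did not pass with replicates 2 and 3 summed (0.0504) or with DESeq2 (0.187). Serpinh1, the collagen chaperone of the endoplasmic reticulum, was at 406 to 449 CPM in NP and 360 to 408 CPM in LP (log2 fold change -0.17, edgeR adjusted p = 0.0368, and 0.137 with replicates 2 and 3 summed), and the groups overlapped. Adamts2, the protease that removes the amino-terminal propeptide of fibrillar procollagens, was higher by a log2 fold change of 0.44 (edgeR adjusted p = 0.018, but 0.0591 with replicates 2 and 3 summed and 0.0602 with DESeq2). Lox, the enzyme that starts collagen cross-links, was at 6.07, 10.2 and 12.1 CPM in NP and at 2.87, 8.60 and 7.42 CPM in LP (edgeR adjusted p = 0.214).

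Of 20 tested fibril-binding proteins 4 were higher and 2 were lower in LP, with a median log2 fold change of -0.01. These counts lie near the shares over all genes tested, 15.3% higher and 11.7% lower. The proteoglycan Fmod was at 17.9, 22.6 and 21.7 CPM in NP and at 40.6, 46.0 and 42.7 CPM in LP (log2 fold change 1.05, edgeR adjusted p = 2.15e-06). Fbln1 (0.94) and Fbn1 (0.50), proteins of elastic fibres and microfibrils, were also higher, with edgeR adjusted p-values of 1.56e-07 and 0.00253. Ogn, a small leucine-rich proteoglycan, was at 35.0, 40.6 and 39.7 CPM in NP and at 14.7, 18.4 and 26.1 CPM in LP (log2 fold change -0.96, edgeR adjusted p = 0.000155). Dcn, the proteoglycan decorin on fibril surfaces, had a log2 fold change of -0.20 (edgeR adjusted p = 0.0468, but 0.138 with replicates 2 and 3 summed and 0.0597 with DESeq2) with overlapping groups. Bgn, its relative biglycan, had -0.03 (edgeR adjusted p = 0.919), and Sparc, a collagen-binding matricellular protein, -0.15 (edgeR adjusted p = 0.298, and 4.11e-07 with the replicate block against 0.413 with replicates 2 and 3 summed).

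Of 19 tested basement membrane partners 4 were higher and 2 were lower in LP, or 5 and 4 with the replicate block, and the median log2 fold change was -0.04. Of all genes tested, 15.3% were higher and 11.7% lower, or 17.5% and 14.7% with the block. Npnt, an integrin ligand of basement membranes, was at 50.02, 41.9 and 43.3 CPM in NP and at 93.2, 89.9 and 98.0 CPM in LP (log2 fold change 1.06, edgeR adjusted p = 1.19e-08). Pxdn, the peroxidase that forms sulfilimine cross-links in type IV collagen, was at 92.2, 92.1 and 97.5 CPM in NP and at 119, 138 and 129 CPM in LP (log2 fold change 0.45, edgeR adjusted p = 4.77e-05), beside Col4a1 and Col4a2 transcripts that were within 1 standard error of no difference. The heparan sulfate proteoglycan Agrn was higher by 0.42 on the log2 scale (edgeR adjusted p = 0.000155). Tinagl1, a matricellular protein of basement membranes, was at 147, 151 and 164 CPM in NP and at 81.7, 80.7 and 78.1 CPM in LP (log2 fold change -0.94, edgeR adjusted p = 2.39e-09), and Egfl6, another secreted basement membrane protein, had -0.22 (edgeR adjusted p = 0.00202).

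None of the 6 tested collagen receptors passed the edgeR test, and with the replicate block 1 was higher and 1 lower. Of 9 tested genes for collagen breakdown and its inhibitors 1 was higher and 3 were lower in LP, with a median log2 fold change of -0.19. Beside both lists, 15.3% of all genes were higher and 11.7% lower, or 17.5% and 14.7% with the block. Timp3, a metalloproteinase inhibitor held in the matrix, was at 433, 362 and 380 CPM in NP and at 262, 252 and 258 CPM in LP (log2 fold change -0.61, edgeR adjusted p = 1.03e-06). The membrane-anchored inhibitor Reck fell by 0.53 and Timp2 fell by 0.20 on the log2 scale (edgeR adjusted p = 0.00854 and 0.0415), and the membrane-type metalloproteinase Mmp15 was higher by 0.22 (edgeR adjusted p = 0.00969). With replicates 2 and 3 summed, Timp2 (0.109) and Mmp15 (0.0833) did not pass, and Timp2 did not pass with DESeq2 (0.163). Mmp2, the gelatinase that cuts denatured and type IV collagen, had a log2 fold change of 0.13 (edgeR adjusted p = 0.587), and Timp1 had 0.35 (edgeR adjusted p = 0.267).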

How the data were processed

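Per the labels and the study's methods, alignment to rat assembly rn5 was done by the authors with TopHat 1.4.0 and counting on gene models with HTSeq. The deposited values are raw read counts per gene, not normalized, in 1 table of 15388 genes for each of 6 samples (3 NP, 3 LP). The identifiers printed above beside collagen symbols are Ensembl transcript identifiers. Whether such a row counts all transcripts of its gene was not tested. How genes were selected and whether counting used strand are not given in the sources used here.

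The fit used edgeR 4.0.16 under R 4.3.3 (TMM, default low-count filter, glmQLFit and glmQLFTest without a block) and Benjamini-Hochberg adjustment over 11738 genes. DESeq2 1.42.0 was an alternative. The standard error is the absolute log2 fold change over the square root of F. The protocol names 3 rats per group but ties no library to an animal, so p-values may measure only technical spread between these samples. The replicate numbers come from the labels, and the deviations of same-numbered libraries from their group means correlated at 0.49, 0.22 and 0.19, each above 0.1. Replicates 2 and 3 correlated across numbers alike (0.22 and 0.22), so the pairing separates replicate 1 from the others and does not tell 2 from 3, and values with the replicate block are given where a call changes. Replicates 2 and 3 were averaged for each SD but entered the fit separately. Intervals and floors cover counting error only, and 3 reads served as the detection floor. The test was run on simulated counts of independent libraries with 1 dispersion. The simulation held no shift of replicate 1 and no matching replicates 2 and 3, so it does not cover these features.

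The members, partner lists and marker lists were chosen with earlier results of these data known. Named were all chains with an adjusted p below 0.05, the chains of types I, III, IV, V and VI, up to 3 partners each way per list with no overlap between groups, and 8 fixed partners. Chains outside this rule were named after their values were seen. The ratio of Col1a1 to Col1a2 was not computed because of the Col1a2 counts. Other marker lists were endothelium (10 tested, 1 higher and 6 lower in LP), follicular cells (11 tested, 3 and 3), adipocytes (6 tested, 0 and 0), Schwann cells (6 tested, 2 and 0), airway epithelium (5 tested, 4 and 0) and smooth muscle and pericytes (10 tested, 1 and 1). Of all genes tested, 15.3% were higher and 11.7% lower. Promoter windows were matched by symbol for 27 of the 36 chains.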

Additional observations from a re-analysis of the deposited data

How the results depend on the processing

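The 7 higher chains became 11 with the replicate block, 3 among genes with a mean of at least 50 reads, 2 with DESeq2 and 4 at an adjusted p below 0.01. The 2 lower chains became 1 with replicates 2 and 3 summed, with DESeq2 or at 0.01. The 3 chains past a fold of 2 became 0 at a mean of 50 reads, a filter that removes low genes, and 1 with DESeq2. Alternatives chosen after seeing the data were replicate 1 against replicates 2 and 3 as block (11 higher), the summed libraries with the block, no filter with the block, and both groups without replicate 1. Leaving out libraries gave 5 to 9 higher chains, 1 to 3 lower chains and 2 to 3 past a fold of 2. The 5 arose without NP replicate 1, LP replicate 2 or LP replicate 3, the 9 without LP replicate 1, the 1 without the same libraries as the 5, and the 3 without NP replicate 2. Over these omissions the median log2 fold change ran from 0.05 to 0.37 in fibrillar, -0.04 to 0.03 in basement membrane and -0.10 to 0.24 in other chains, and the difference in read share from -0.0319 to 0.0638 percentage points.

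Reversals concerned uncalled chains. Col4a1 was -0.0018 on the log2 scale with no filter, -0.00027 with normalization without skeletal muscle markers and -0.0025 with no filter and the block, and at a mean of 50 reads Col4a2 was 0.00047 and Col6a2 0.0056. Without single libraries the log2 fold change ran from -0.011 to 0.60 for Col1a1, -0.064 to 0.033 for Col4a1, -0.053 to 0.027 for Col4a2, -0.015 to 0.16 for Col4a5, -0.29 to 0.18 for Col5a2, -0.18 to 0.22 for Col6a1, -0.27 to 0.24 for Col6a2 and -0.63 to 0.75 for Col6a4. The cause was not tested. The replicate block changed no call of a chain beyond the 5 it added, of which Col5a1 (adjusted p = 0.0509 and 0.0622 by edgeR) and Col9a3 (0.0542 and 0.0631) were lost with the block on summed replicates 2 and 3 and with the block and no filter. Chains under about 10 reads in a library, such as Col22a1 and Col6a6, are limited by depth.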
